A study of Homo sapiens with 12 samples.

Results

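TBX2, TBX3, TBX4 and TBX5 form the TBX2 and TBX3 subfamily of the T-box genes, 4 of the 20037 protein-coding genes considered. They were selected on the number of enzalutamide regions at TBX3, which forms a cluster, so that number is a description here and was not tested. The study used ATAC-seq, in which a transposase cuts accessible DNA, on 22Rv1 cells, a human prostate cancer line of long standing whose genotype the labels give as WT. There were 4 groups of 3 samples, biological replicates per the labels. Treatment for 6 h was with 1 µM of enzalutamide, 100 nM of OSU-ERb-12, or OSU-ERb-12 plus enzalutamide. For OSU-ERb-12 plus enzalutamide the labels of those samples give no doses. The remaining group had vehicle, whose treatment label gives no time. Enzalutamide is an antiandrogen drug, and the OSU compound binds oestrogen receptor beta. The files analysed are 3 lists of regions, 1 per treatment. Enzalutamide has 25317 regions, OSU-ERb-12 has 17931, and the list of both agents, called the combination list, has 6248; each is assumed to be a contrast with vehicle. They give positions only. A tag in the names of all 3 lists reads neg, which may mark a negative change, but the sources used here leave it undefined. Regions are therefore given without a direction against vehicle. No library has a value of its own, and sequencing depth is unknown, so no replicate error exists and no result below has a test. The cell line could not be checked against marker genes, since the lists hold no level of any gene.

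T-box genes encode transcription factors that bind DNA through the T-box domain, for which the core motif GGTGTGA is known. TBX2 and TBX3 act mainly as repressors and are known for holding back senescence by repressing cell cycle inhibitor genes, while TBX4 and TBX5 act mainly as activators and direct the growth of hindlimb and forelimb. The 4 genes lie in 2 ancient pairs, TBX3 beside TBX5 on chromosome 12 and TBX2 beside TBX4 on chromosome 17, so that each pair joins a repressor with an activator. TBX3 is mutated in ulnar-mammary syndrome and TBX5 in Holt-Oram syndrome, a disorder of heart and upper limb.

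The locus of a gene was its body extended by 10 kb at each end, and a region belonged to it with an overlap of at least 1 bp. The enzalutamide list had a region at all 4 members, where 58.3% of protein-coding genes had one. TBX3 held 8 enzalutamide regions, TBX2 held 3, and TBX4 and TBX5 held 1 each. The OSU-ERb-12 list had a region at 3 members, against 39.1% of all genes, with 2 regions each at TBX3, TBX2 and TBX4 and none at TBX5. The combination list had a region at 2 members, against 21.7% of all genes, with 1 each at TBX4 and TBX5 and none at TBX3 or TBX2. The repressor genes TBX3 and TBX2 thus had regions of both single agents and none of the combination, a pattern shared by 18.2% of all genes, and no member had regions of all lists except TBX4.

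**Figure D1:**
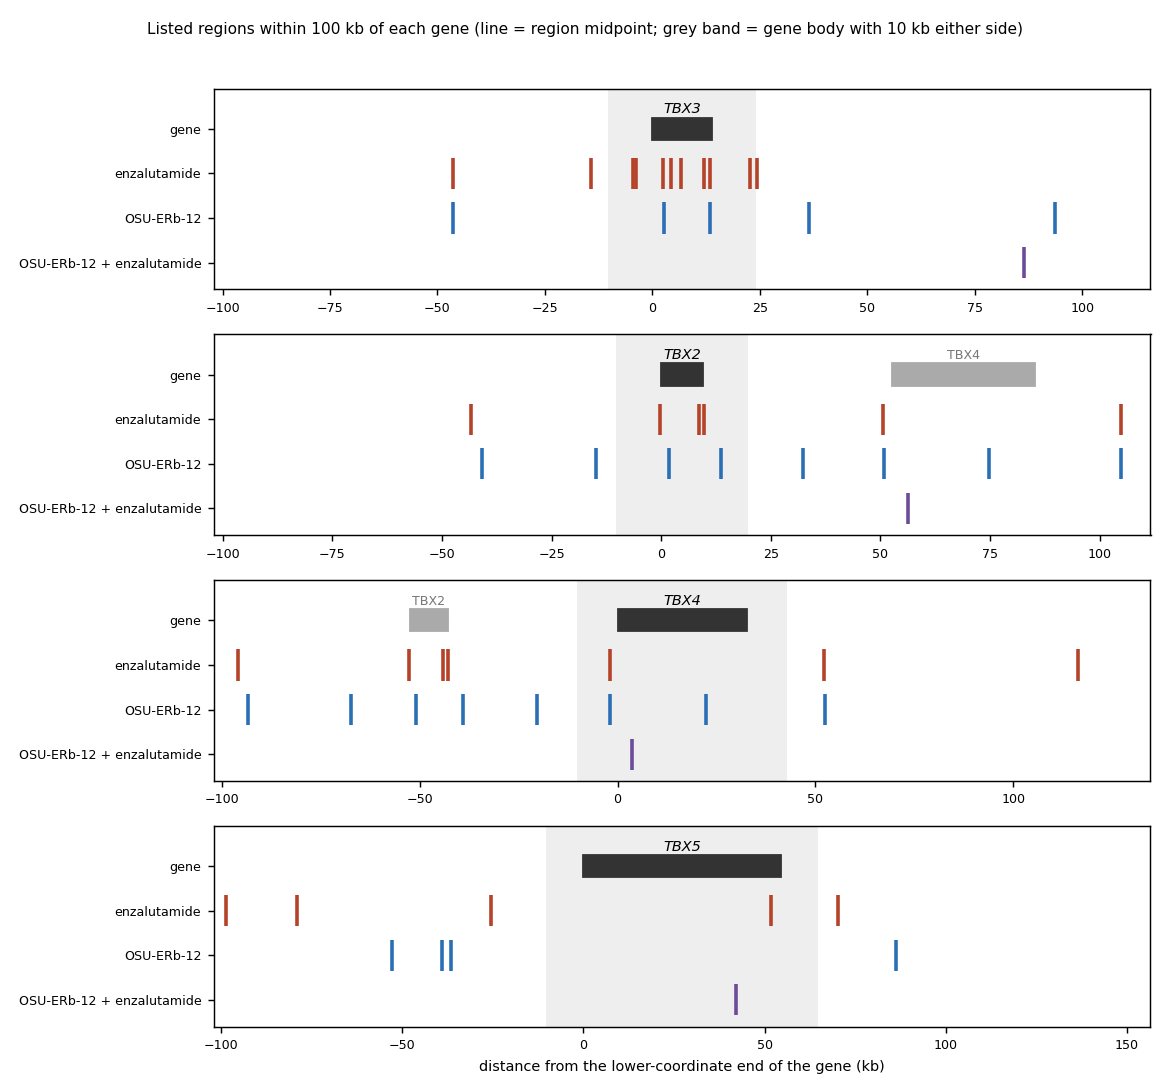
Position of every listed region within 100 kb of TBX3, TBX2, TBX4 and TBX5, by list; the x axis is the distance in kb from the end of the gene with the lower coordinate, coloured lines are region midpoints, and the grey band is the gene body with 10 kb either side. The 8 enzalutamide regions at TBX3 crowd inside the band, while the bands of TBX4 and TBX5 hold 1 enzalutamide region each.

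TBX3 (gene ID 6926) spans 114670255 to 114684175 on chromosome 12 in the RefSeq annotation of GRCh38.p14, the build of the files, and is transcribed from its upper end. Its locus of 33.9 kb held 2.36 enzalutamide regions per 10 kb. At the mean density of the enzalutamide list on chromosome 12, a locus of this length would hold 0.402. That mean, like the other expected numbers below, takes in the stretches between genes, so it is no background for gene loci. Of all protein-coding genes, 129 (0.644%) held at least 8 enzalutamide regions and 73 held more than 8, with 18 as the highest number. Among the 7215 genes with a locus no longer than that of TBX3, only TBX3 and LOC124902461, a predicted gene on chromosome 10 named after its value was seen, held at least 8. This number chose TBX3, so its rank supports nothing further.

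**Figure D2:**
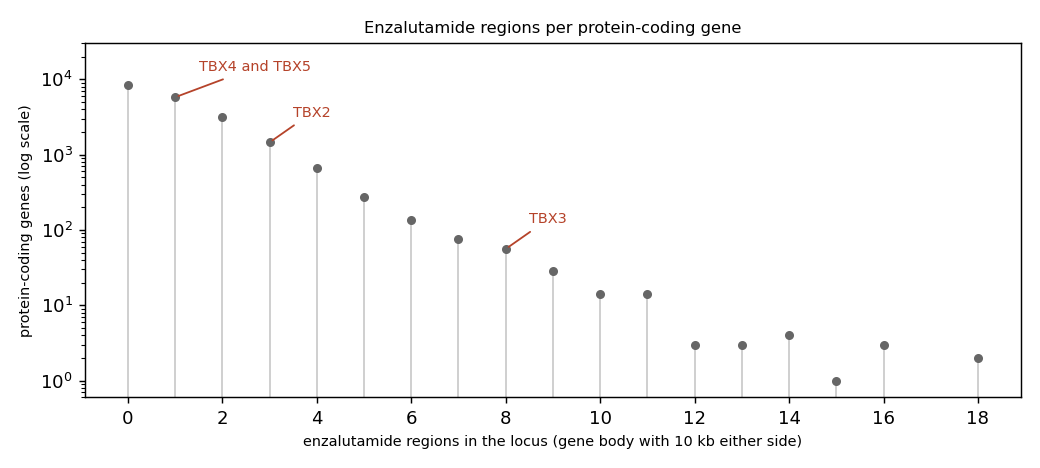
Number of protein-coding genes (y axis, log scale) by the number of enzalutamide regions in their locus (x axis), with the subfamily members marked. TBX3 sits in the tail with 8 regions, TBX2 lies at 3 and TBX4 and TBX5 at 1.

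The 8 TBX3 regions spanned 27.5 kb, were separated by 450 bp to 9200 bp (median 1900 bp), and covered 2900 bp or 8.55% of the locus. Of the 25317 enzalutamide regions, 14 (0.0553%) began a stretch of 27.5 kb with at least 8 complete regions. Both the length and the number were taken from TBX3, which is among the 14, so this share supports nothing further. Neighbouring starting regions can also belong to the same cluster. Below the gene, beyond the end where transcription stops, lay the regions at 114665651 to 114665850 and 114666301 to 114666700, which are 4405 bp and 3555 bp outside. Inside the gene body lay 5 regions. The widest, 900 bp long at 114672201 to 114673100, was 1946 bp from the lower end. In the enzalutamide list 78 regions (0.308%) were at least 900 bp wide. The cut of 900 bp was taken from this widest region, so that share also supports nothing further. The regions at 114674551 to 114674800 and 114676701 to 114677000 followed in the middle of the gene. Near the upper end, where transcription starts, lay 114682051 to 114682500 and 114683551 to 114683750, at 1675 bp and 425 bp from it. The region at 114692951 to 114693150 lay 8776 bp above the gene and was the outermost inside the 10 kb window. The next, 114694401 to 114694700, fell 226 bp beyond the window, and on the other side the next was 114655901 to 114656150, 4105 bp beyond it.

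**Figure D3:**
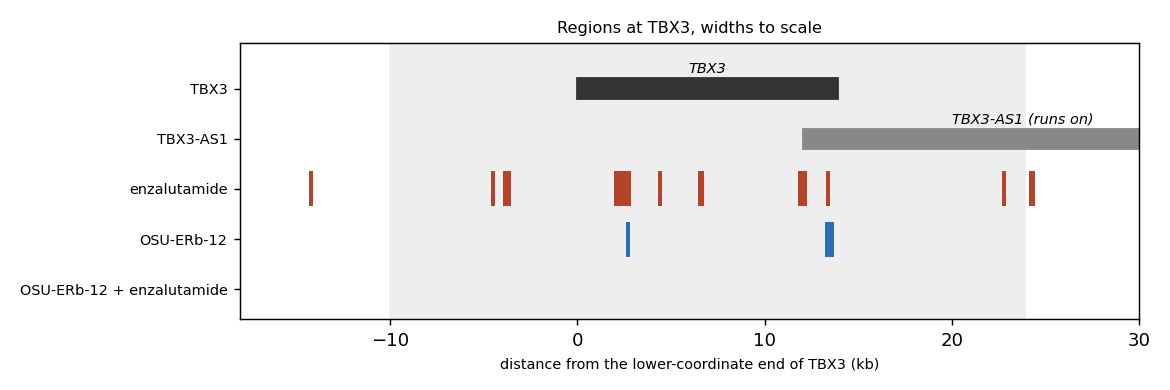
Regions of the 3 lists at TBX3, drawn to scale in width, against the distance in kb from the lower-coordinate end of TBX3; dark and grey bars are TBX3 and the overlapping noncoding gene TBX3-AS1, and the grey band is the locus. Both OSU-ERb-12 regions lie over enzalutamide regions, and the combination track is empty.

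The upper end of TBX3 overlaps TBX3-AS1, a long noncoding RNA gene of 85.7 kb on the opposite strand (114682292 to 114767988). The enzalutamide region at 114682051 to 114682500 covered the start of TBX3-AS1. It took in 291 of the 300 bases of the promoter window that RefSeq gives for this gene, which reaches from 250 bases before the start to 50 bases after it. Of the 19 promoter windows of 14 T-box genes used here, among them TBX4 and TBX5, none overlapped a region of any list. TBX2 and TBX3 have no window among them, so this count leaves out the enzalutamide region that crosses the start of TBX2. Of all 35116 promoter windows, 7.88% overlapped the enzalutamide list, 1.26% the OSU-ERb-12 list and 1.49% the combination list. The window of TBX3-AS1 is shown because the enzalutamide region lies on it, and that of TBX4 because the combination region nearest to any member's promoter window ended 38 bp before it. The TBX4 window lies inside the gene body and not at its lower end, which is at 61452422. Both windows are 5′ to 3′ on the + strand of GRCh38.p14, at chr12:114682042-114682341 and chr17:61456238-61456537, with the E-box CACGTG in capitals.
TBX3-AS1: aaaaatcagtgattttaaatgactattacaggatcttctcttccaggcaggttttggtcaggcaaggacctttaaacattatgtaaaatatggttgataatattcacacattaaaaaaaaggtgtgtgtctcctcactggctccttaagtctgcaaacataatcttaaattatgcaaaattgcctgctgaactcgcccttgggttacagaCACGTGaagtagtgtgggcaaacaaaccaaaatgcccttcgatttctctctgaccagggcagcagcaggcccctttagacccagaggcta
TBX4: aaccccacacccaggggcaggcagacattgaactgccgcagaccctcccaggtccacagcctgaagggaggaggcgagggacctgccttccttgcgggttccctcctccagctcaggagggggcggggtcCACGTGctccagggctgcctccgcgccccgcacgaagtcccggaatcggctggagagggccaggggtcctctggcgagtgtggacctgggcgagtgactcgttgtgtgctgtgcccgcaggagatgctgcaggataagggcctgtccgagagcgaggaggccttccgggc

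The windows differed in base composition. That of TBX3-AS1 had 41.3% G and C and a ratio of observed to expected CpG of 0.23, against 68.3% and 0.52 for TBX4, 54.3% and 0.95 for the TBX5 window at chr12:114407963-114408262, and medians of 58.7% and 0.58 over all windows. Each of the shown windows held 1 match to CACGTG, a motif that reads the same on both strands and that 7.26% of all windows hold. On either strand, the T-box core motif GGTGTGA (3.45% of windows) and its longer form AGGTGTGA (0.98%), which contains it, were in neither window nor in either TBX5 window. The same held for AGAACA, a core motif of the glucocorticoid receptor and related steroid receptors (14.8% of windows), the oestrogen receptor core AGGTCA (13.8%), the oestrogen receptor palindrome (0.057%), the forkhead motif TGTTTAC (3.42%) and the AP-1 motif TGANTCA (7.71%). The short CTCF core CCCTC (71.2%) matched 5 times in the TBX4 window, 3 times in the TBX5 window at chr12:114408393-114408692 and not at all in that of TBX3-AS1. These matches describe letters and are not binding sites. For TBX2 and TBX3 themselves no window was used.

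The single-agent lists overlapped at 2 places in the TBX3 locus. The OSU-ERb-12 region at 114672851 to 114673050 lay wholly inside the 900 bp enzalutamide region. The OSU-ERb-12 region at 114683501 to 114683950, 225 bp from the upper end of TBX3, contained the enzalutamide region at 114683551 to 114683750. Both OSU-ERb-12 regions of the TBX3 locus thus overlapped enzalutamide regions, by 200 bp each. Over the whole OSU-ERb-12 list 8.72% of regions overlapped an enzalutamide region, and in the loci with at least 8 enzalutamide regions 66 of 760 (8.68%) did. All of those loci except TBX3 and LOC124902461 are longer than that of TBX3, so the last share is no close match for it. In the other direction 2 of the 8 enzalutamide regions at TBX3 overlapped an OSU-ERb-12 region, where 6.17% of the enzalutamide list did. None of the 8 overlapped a combination region, nor did either OSU-ERb-12 region, where 4.02% and 4.43% of those lists did. The lists are taken to share vehicle samples, so an overlap cannot be assigned to the treatments. As to numbers, 15.3% of all genes held at least the 2 OSU-ERb-12 regions of TBX3, and 0.36 would be expected in the locus at the density of this list on chromosome 12. Among the 7215 genes with a locus no longer than that of TBX3, 375 held at least 2.

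No combination region lay in the TBX3 locus. The nearest was 72476 bp above the gene, at 114756651 to 114756850, inside TBX3-AS1. Of the 129 genes with at least 8 enzalutamide regions, 39 (30.2%) likewise held no combination region, while 124 (96.1%) held an OSU-ERb-12 region. At the density of the combination list on chromosome 12, 0.123 regions would be expected in the TBX3 locus, so a locus of this length would mostly hold none. Along TBX3-AS1 as a whole lay 4 enzalutamide regions, 3 OSU-ERb-12 regions and 1 combination region.

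Away from TBX3 the enzalutamide regions were sparser, which the choice of TBX3 by the cluster in its locus favours in advance. In the flank, the 90 kb on either side beyond the locus, there were 3 enzalutamide regions, where 2.13 would be expected at chromosome density and where 42.7% of all genes have at least 3. The flank also held 3 OSU-ERb-12 regions (1.91 expected) and 1 combination region (0.652 expected). At the other members the flank held 3 enzalutamide regions for TBX2, 6 for TBX4 and 4 for TBX5, so all 4 members had one there, as did 80.9% of all genes. The 6 of TBX4 include the 3 regions of the TBX2 locus. For OSU-ERb-12 the flanks of TBX2 and TBX4 held 6 each and that of TBX5 held 4, again all 4 members, against 68.6% of all genes. For the combination only TBX3 and TBX2 had a flank region, 1 each, against 43.4% of all genes. That of TBX2, at 61456001 to 61456200, is the same region that lies in the TBX4 locus. The enzalutamide region at 114623751 to 114624100, 46155 bp below TBX3, contained the OSU-ERb-12 region at 114623801 to 114624050. It was the third place near TBX3 where the single-agent lists overlapped.

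**Figure D4:**
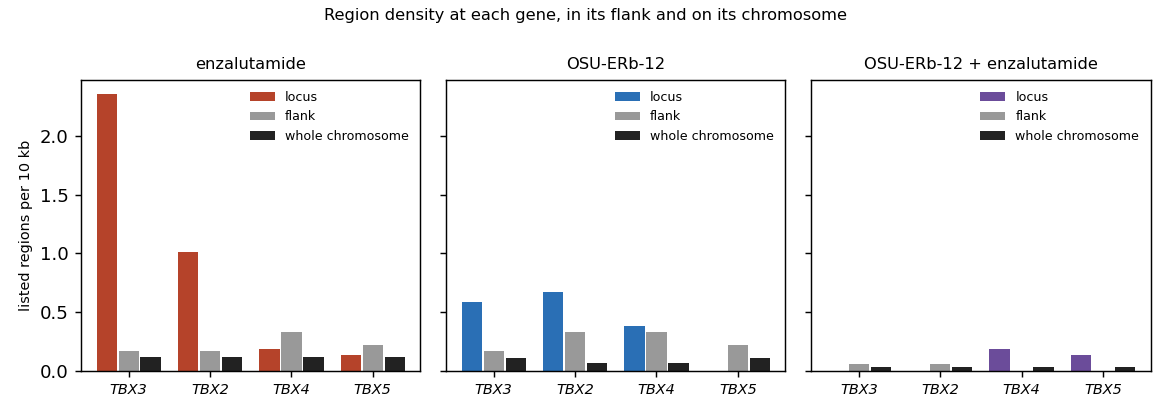
Listed regions per 10 kb in the locus of each member (coloured bars), in its flank (grey) and on its whole chromosome (black), with 1 panel per list. For enzalutamide the TBX3 locus reaches 2.36 and the TBX2 locus 1.01, while TBX4 at 0.19 and TBX5 at 0.134 lie below their own flanks. The TBX4 flank holds 6 enzalutamide regions, and these include the 3 of the TBX2 locus, so its contrast rests on them.

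TBX2 (gene ID 6909), the closest relative of TBX3, spans 61399843 to 61409466 on chromosome 17 and is transcribed from its lower end. It held 3 enzalutamide regions in a locus of 29.6 kb, where 0.339 would be expected, and 13.6% of all genes held at least 3. Among the 5496 genes with a locus no longer than that of TBX2, 347 did. All 3 lay within 1 kb of an end of the gene, 1 of them only just at 966 bp, against 1 of the 8 at TBX3. These counts have no share over all genes beside them. The widest, 550 bp at 61399401 to 61399950, crossed the start of TBX2 and the neighbouring end of the noncoding gene TBX2-AS1. The regions at 61408301 to 61408500 and 61409551 to 61409750 lay 966 bp inside and 85 bp beyond the upper end. The OSU-ERb-12 regions lay elsewhere, at 61401501 to 61401700 inside the gene and at 61413251 to 61413600, 3785 bp above it, over the end of LINC02875. None of the 2 overlapped an enzalutamide region, unlike the 2 at TBX3. Over the whole OSU-ERb-12 list only 8.72% of regions did, so no overlap is the usual case. With so few regions, neither contrast between TBX2 and TBX3 could be tested.

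TBX4 (gene ID 9496), known for its part in hindlimb and lung development, spans 61452422 to 61485110 and is transcribed from its lower end. Its only enzalutamide region, 500 bp wide at 61450251 to 61450750, lay 1672 bp below the gene and contained the OSU-ERb-12 region at 61450401 to 61450750. Another OSU-ERb-12 region lay inside the gene at 61474501 to 61474850. The combination region, at 61456001 to 61456200, lay 3579 bp inside the gene, beside the promoter window shown above, and overlapped neither other list. In the whole combination list 16.3% of regions overlapped an enzalutamide region and 12.7% an OSU-ERb-12 region. In 52.7 kb the enzalutamide count of 1 compares with 0.603 expected from the chromosome, the OSU-ERb-12 count of 2 with 0.344 and the combination count of 1 with 0.16. Among the 11620 genes with a locus no longer than that of TBX4, 5607, 802 and 1929 held at least as many, in that order.

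TBX5 (gene ID 6910), the forelimb and heart gene, spans 114353911 to 114408442 on chromosome 12 and is transcribed from its upper end. Its locus of 74.5 kb was the longest of the 4, with 0.884 enzalutamide regions expected. The observed enzalutamide region, at 114405451 to 114405650, lay inside the gene, 2792 bp from the end where transcription starts. The combination region, at 114395851 to 114396100, lay further inside, 12342 bp from that end. No OSU-ERb-12 region was present (0.791 expected), and the nearest lay 31559 bp above the gene. None of the TBX5 regions overlapped another list.

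Over the subfamily, 13 enzalutamide regions lay in the loci, of which 8 came from TBX3, beside 6 OSU-ERb-12 and 2 combination regions. In 3 cases an enzalutamide region overlapped an OSU-ERb-12 region, at TBX3 in 2 and at TBX4 in 1, and no combination region overlapped another list. The shares that overlap in the whole lists are given above. The median width of the regions in these loci was 250 bp for enzalutamide, as in the whole list. It was 350 bp for OSU-ERb-12 and 225 bp for the combination, against 200 bp in either whole list.

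The neighbourhoods of the pairs differ in size. TBX3 and TBX5 lie in a stretch of 1992.2 kb without another protein-coding gene, between RBM19, a ribosome biogenesis gene, and MED13L, a subunit gene of the Mediator kinase module. In this stretch there were 34 enzalutamide, 30 OSU-ERb-12 and 8 combination regions, and the TBX3 locus alone held 8 of the 34 enzalutamide regions. Between TBX5 and TBX3 (261.8 kb) lay 5 enzalutamide regions, 2 OSU-ERb-12 regions and no combination region. From TBX3 to MED13L (1274.4 kb) there were 19 each for enzalutamide and OSU-ERb-12 and 6 for the combination, a density of 1.49, 1.49 and 0.471 per 100 kb in that order. The MED13L locus itself held 5 enzalutamide, 6 OSU-ERb-12 and 1 combination region, and that of RBM19 held only 2 OSU-ERb-12 regions. TBX2 and TBX4 share 197.6 kb between BCAS3 and NACA2, which held 6 enzalutamide, 6 OSU-ERb-12 and 1 combination region. Their flanks overlap each other's genes, so the 6 OSU-ERb-12 flank regions of TBX2 and of TBX4 are partly the same. At least 6 such regions in the flank were found for 2.87% of all genes. BCAS3, a large gene below TBX2, held 4 enzalutamide, 6 OSU-ERb-12 and 1 combination region, and NACA2 held none.

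The 13 T-box genes outside the subfamily each held fewer enzalutamide regions than TBX3, which was chosen for its high number. Of the 13, 7 (53.8%) had at least 1 enzalutamide region, against 58.3% of all genes, with a median of 1 as among all genes. The highest number was 3, at TBX6, a gene of paraxial mesoderm, followed by 2 at TBX15. TBX2 with 3 therefore ranked level with TBX6. OSU-ERb-12 regions lay at 4 of the 13 (30.8%, against 39.1%), with 1 each at TBX1, TBX19, TBX21 and MGA. TBX21 encodes T-bet of T helper cells, and MGA encodes a partner of MAX. Combination regions lay at 2 of the 13 (15.4%, against 21.7%), TBX10 with 2 and TBX6 with 1. TBX18, TBX22 and the brain factor gene TBR1 held no region of any list, and no gene of the 13 held regions of all 3 lists. TBXT, TBX20 and EOMES held 1 enzalutamide region each and nothing else. These shares lie near the background.

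**Figure D5:**
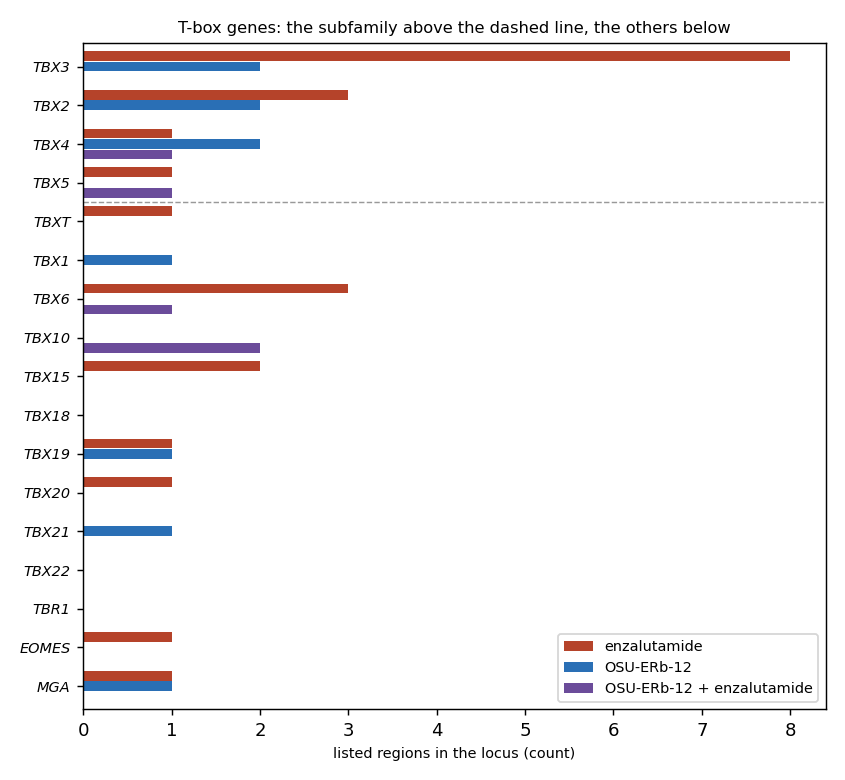
Listed regions in the locus of each of the 17 T-box genes (count on the x axis), with the subfamily above the dashed line and the other 13 genes below it, coloured by list. TBX3, chosen for this number, has 8 enzalutamide regions, and no other T-box gene exceeds 3.

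Genes reported as targets of TBX2 or TBX3 were looked at in the same way. Of 12 such genes, 9 (75.0%) had an enzalutamide region, 6 (50.0%) had one for OSU-ERb-12, and 2 (16.7%) had one for the combination. Over all genes these shares were 58.3%, 39.1% and 21.7%. The median numbers were 1, 0.5 and 0, against 1, 0 and 0 over all genes. CDKN2A and CDKN2B, cell cycle inhibitor genes next to each other on chromosome 9, held no region of any list. CDKN1A, which encodes the inhibitor p21, had 2 enzalutamide regions and a single OSU-ERb-12 region. The cadherin genes differed, with no enzalutamide, 2 OSU-ERb-12 and 1 combination region at CDH1 (E-cadherin), and 4, 3 and 0 at CDH2 (N-cadherin), whose locus of 264.3 kb is the longest of the list. NDRG1 had 2 regions of each single agent, and SNAI1, an epithelial-mesenchymal transition factor gene, held 2 enzalutamide regions and 1 combination region. GJA1, a gap junction gene, held 1 enzalutamide region and no other.

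Of 22 genes for upstream signals, partners and corepressors of the subfamily, 20 (90.9%) had an enzalutamide region, 11 (50.0%) had one for OSU-ERb-12, and 6 (27.3%) had one for the combination, beside the same 58.3%, 39.1% and 21.7% over all genes. The median of 2 enzalutamide regions compares with 1 over all genes, but the median locus was also longer, 60.2 kb against 44.1 kb. Among the members with the most enzalutamide regions were the histone deacetylase gene HDAC5 with 6, the early response gene EGR1 with 5 and TCF7L2, a Wnt effector gene, with 4. For OSU-ERb-12 TCF7L2 led with 3, and BMP7 and GATA4 were among those with 2. For the combination LEF1 and HDAC5 led with 2 each.

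The genes with the pattern most like TBX3, by the summed difference in region number over the 3 lists, matched it exactly with 8 enzalutamide, 2 OSU-ERb-12 and no combination regions. Among these 5 genes were PTPN14, MTHFD1L, COG5 and KIAA1217. Their loci of 222.9 kb, 256.2 kb, 382.5 kb and 873.1 kb were each far longer than the 33.9 kb of TBX3. A further 21 genes differed from TBX3 by 1 region.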

How the data were processed

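The authors deposited 3 lists in BED form, without a header: chromosome, start and end on hg38, and a score. The deposited score is 0 in every row, so regions could not be ranked. Per the labels' protocols, ATACSeqQC split off nucleosome-free reads, and the submitters' processing notes name FastQC and Trimmomatic. How peaks were called, tested and pooled, any transposase offset, and the direction of change were not given in the sources used here. A prefix shared with sample titles ties each list to its treatment; that of OSU-ERb-12, WT, has no explanation in the labels.

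Region boundaries, on a 50 bp grid, are printed 1-based. Counts were made with Python 3.11.15, pandas 2.3.3 and numpy 2.4.6, using 20037 RefSeq protein-coding genes on 24 chromosomes; counting was tested on simulated data. Expected numbers are list density on the chromosome, over its outermost genes or regions, times length. They average over genes and the stretches between them, and are no test. Promoter sequences come from RefSeq (GRCh38.p14); the build of the hg38 positions is the same. All 47 genes of the lists and the 4 members matched by symbol.

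The members, gene lists, motifs and naming rule (members, neighbouring protein-coding genes, up to 4 leading genes per list, and the 5 genes most like TBX3) were chosen with earlier results of these data known. Strand of TBX2 and TBX3 is background knowledge. Some genes that the rule takes were left out of the text.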

Additional observations from a re-analysis of the deposited data

How the results depend on the processing

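Of 196 alternative values over 12 settings, 141 stayed within 1.5 times the value reported and 55 moved further. With the gene body alone, TBX3 had 5 enzalutamide regions; 4 other T-box genes and 13 upstream or partner genes held one; 3 target genes held an OSU-ERb-12 region; combination regions lay at 0 other T-box, 1 target and 2 upstream genes and at 13.9% of all genes. With 5 kb either side, 1 other T-box gene and 1 target gene held a combination region. With 50 kb, TBX3 had 4 OSU-ERb-12 regions, 7 other T-box genes and 63.8% of all genes held one, and combination regions lay at 6 other T-box, 4 target and 13 upstream genes and 39.6% of all genes. With regions of 250 bp or longer only, TBX3 had 5 enzalutamide regions and 1 OSU-ERb-12 region; enzalutamide regions lay at 3 other T-box and 4 target genes; OSU-ERb-12 regions at 1 other T-box gene, 5 upstream genes and 17.9% of all genes; and combination regions at 1 member, 0 other T-box genes, 1 upstream gene and 8.14% of all genes. These settings count fewer or more bases or regions by construction. The small counts of the other members moved as well: with regions of 250 bp or longer, TBX2 had 1 enzalutamide and 1 OSU-ERb-12 region, TBX5 had 0 enzalutamide regions and TBX4 had 0 combination regions, and with the gene body alone TBX4 had 0 enzalutamide regions and TBX2 and TBX4 had 1 OSU-ERb-12 region each. With 50 kb either side, TBX2, TBX4 and TBX5 had 5, 4 and 3 enzalutamide regions and 6, 5 and 3 OSU-ERb-12 regions, and TBX2 had 1 combination region. Merging regions within 1 kb gave TBX3 7 enzalutamide regions. TBX3 had 0 combination regions in every window up to 50 kb, and its 2 OSU-ERb-12 regions overlapped enzalutamide regions under each overlap rule run. Within 500 bp of a promoter window, a setting chosen after seeing the data, 3 windows of T-box genes (TBXT with 2 and TBX6 with 1) and that of TBX3-AS1 had an enzalutamide region, and the TBX4 window had a combination region. No paired analysis was possible because the lists hold no values per library, and for the same reason no replicate could be left out.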
